A study of Mus musculus with 371 samples.

Results

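The cytosolic ribosomal protein genes are the 80 genes of the table whose symbols start with Rpl or Rps followed by a number and at most 1 further letter, together with Rplp0, Rplp1, Rplp2 and Rpsa. They were chosen by symbol alone, from 23362 genes used. 49 of them carry large subunit names and 31 small subunit names. The rule takes in 4 paralogues whose symbols end in l (Rpl3l, Rpl10l, Rpl39l and Rps27l), which left 76 genes without them, 46 of the large and 30 of the small subunit. The rule leaves out, among others, Rps3a1 and Fau, which also encode ribosomal proteins and are given at the end for comparison.

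The study profiled single T cells from B16F10 tumours, a transplantable mouse melanoma grown in C57BL/6 mice, with Smart-seq2, a full-length cDNA method for 1 cell. Cells were labelled WT or IL27raKO, the latter for mice lacking the gene of the IL-27 receptor alpha chain, and by a CD8 or a CD4 sort. The labels name the genotype of the tumour-bearing mice, and give neither an age nor a day after tumour injection in the fields used here. The treatment text of every cell, CD4 cells included, speaks of CD8+ T cells, so the sort was taken from the titles. The table holds 94 WT CD8, 90 KO CD8, 94 WT CD4 and 93 KO CD4 cells. Of these, 350 had at least 1000 genes at 1 FPKM (fragments scaled to transcript length and library size) and were kept. CD4 cells were split by their own Foxp3 value, at 1 FPKM, because Foxp3 encodes the defining transcription factor of regulatory T cells. The 6 groups were 90 WT CD8 cells, 86 KO CD8 cells, 39 WT and 54 KO Foxp3-negative CD4 cells, and 46 WT and 35 KO Foxp3-positive CD4 cells. All cells of a genotype and sort carry the same animal word in their titles (dog, bird, cat or rabbit). The labels do not say whether this word marks a mouse, a plate or pooled mice, so each such set, called a pool below, was taken as 1 sample. Cells are then not replicates, no test between groups was possible, and genotype cannot be told apart from that word. Every CD8 cell also carries the suffix p1 and every CD4 cell p2, so sort and suffix cannot be told apart either.

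Ribosomal proteins are built with ribosomal RNA into the large and the small subunit of the ribosome, which catalyse peptide bond formation and decode messenger RNA respectively. Their messenger RNAs are among the most abundant of any cell, and most begin with a pyrimidine run at the very first base, the terminal oligopyrimidine tract, through which the mTOR pathway and the protein Larp1 control their translation. Activated T cells make many ribosomes as they grow and divide, while quiescent naive T cells keep these messenger RNAs and translate little.

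By the search described here, such a run was found at the listed start of a minority of the members, more often than over all genes. RefSeq start sites (GRCm38.p6, the assembly that mm10, the authors' build, is made from) matched 60 of the 80 genes by symbol, with 72 starts. An unbroken run of at least 5 C or T letters covering the first transcribed base, searched on the gene's own strand, was present in 20 of the 60 genes, 33.3%. The same run was present in 10.2% of 16369 genes of the table with a start. Windows of 15 bases on either side of the start are shown for genes that the values below turn on, with that run in capitals: Rps27, Rpl28 and Rpl14 for their differences, Rps6 as a member found in nearly all cells, and Rps27l, Rpl12, Rpl10 and Rplp0, whose listed starts had no such run.
Rps27 (chr3:90213634-90213663, minus strand): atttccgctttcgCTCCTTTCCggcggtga
Rps6 (chr4:86857353-86857382, minus strand): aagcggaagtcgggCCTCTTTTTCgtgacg
Rpl28 (chr7:4792950-4792979, plus strand): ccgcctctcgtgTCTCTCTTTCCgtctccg
Rpl14 (chr9:120571502-120571531, plus strand): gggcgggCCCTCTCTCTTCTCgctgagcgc
Rps27l (chr9:66946071-66946100, plus strand): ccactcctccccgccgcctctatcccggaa
Rpl12 (chr2:32961697-32961726, plus strand): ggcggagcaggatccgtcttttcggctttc
Rpl10 (chrX:74270801-74270830, plus strand): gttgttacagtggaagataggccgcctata
Rplp0 (chr5:115559452-115559481, plus strand): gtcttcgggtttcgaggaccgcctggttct
A listed start is 1 position per RefSeq model, and a start placed a few bases away from the one cells use would hide a run. In Rpl12 and in Rps27l a run of C and T letters lies just after the listed start. A match is a description of letters, and absence here says only that these letters do not cover that base.

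Depth differed between the groups. The median number of genes at 1 FPKM was 2148 and 1955 in CD8 cells (WT, then KO), 1547 and 1746 in Foxp3-negative cells, and 1884 and 2152 in Foxp3-positive cells. The table gives no read totals, so depth in reads is unknown. The lowest nonzero FPKM of a member ranged from 0.76 to 122.6 over the 77 members with any value, with a median of 6.35. Il27ra itself had a value in 51.1% of WT CD8, 53.5% of KO CD8, 50.6% of WT CD4 and 50.6% of KO CD4 cells. A whole-gene value does not show which exons are lost, so it does not check the genotype label. The CD8 and CD4 sorts differed in their lineage genes: the median summed FPKM of Cd8a and Cd8b1 was 1289 and 1061 in WT and KO CD8 cells and 0.0 in each of the 4 CD4 groups. Foxp3 was at 1 FPKM or more in 4 of 86 KO CD8 and 0 of 90 WT CD8 cells, which stayed in their groups. Without these 4 cells, an alternative chosen after the values were seen, the KO CD8 share of FPKM given next was 19.18% and the KO minus WT medians in CD8 cells were -0.34 and -0.39. Cells with at least 2 markers of another cell type at 10 FPKM numbered 8, 6, 3, 8, 5 and 2 in the order of groups above. A single KO Foxp3-negative cell had 778300 summed FPKM of haemoglobin and related erythroid genes.

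The ribosomal protein genes took a lower share of the transcriptome in Foxp3-positive CD4 cells than in Foxp3-negative CD4 and in CD8 cells. The share is the summed FPKM of the 80 genes over that of all genes in the same cell. Its median was 19.1% in WT CD8 cells (lowest 2.86%, highest 36.2%) and 18.9% in KO CD8 cells (lowest 0.891%, highest 37.3%). In Foxp3-negative CD4 cells it was 15.5% in WT (lowest 5.82%, highest 28.7%) and 14.7% in KO (lowest 3.94%, highest 32.9%). In Foxp3-positive cells it was 9.25% in WT (lowest 1.67%, highest 23.1%) and 10.5% in KO (lowest 5.97%, highest 16.99%). The ranges of the cells overlap in every pair of groups. Of 46 WT Foxp3-positive cells, 44 lay below the median of the WT Foxp3-negative cells, and of 35 KO Foxp3-positive cells, 29 lay below that of the KO Foxp3-negative cells. Foxp3-negative CD4 cells in turn lay below the CD8 median in 31 of 39 WT and 42 of 54 KO cells.

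Both subunits carried this order. Large subunit genes took a median of 11.2% of FPKM in WT CD8, 9.32% in WT Foxp3-negative and 5.61% in WT Foxp3-positive cells, and 11.1%, 8.56% and 6.22% in the matching KO groups. Small subunit genes took 8.07%, 6.17% and 3.49% in WT and 8.08%, 5.94% and 4.40% in KO. The summed FPKM of large over small subunit genes had a median between 1.36 in WT CD8 and 1.53 in WT Foxp3-positive cells. The share depended little on how many genes a cell had: among cells with at least 2000 genes its medians were 19.2%, 19.2%, 17.1%, 12.98%, 10.6% and 10.5% in the same order of groups, though only 6 WT Foxp3-negative cells remain there. It was also close to the values above without the cells holding other cell types' markers, at 9.21% and 10.5% in WT and KO Foxp3-positive cells.

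**Figure D1:**
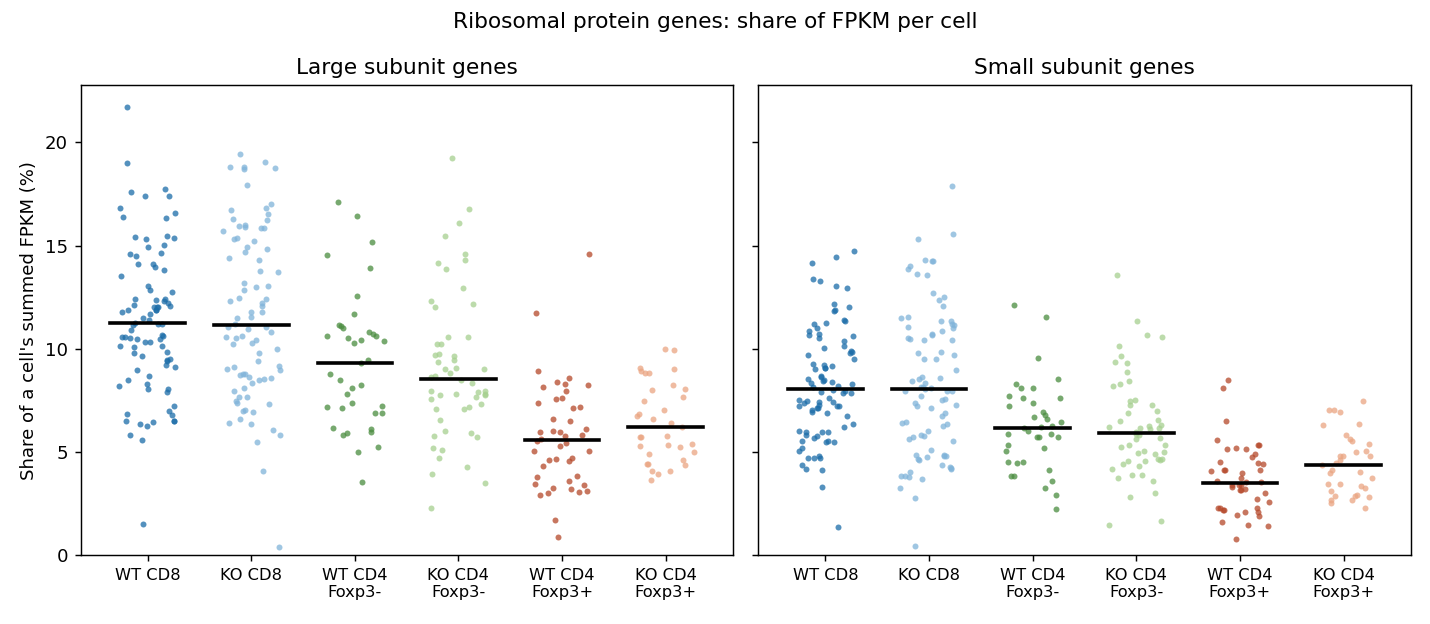
Share of each cell's summed FPKM (y axis, percent) taken by the 49 large subunit genes (left) and the 31 small subunit genes (right). Points are cells, black lines are group medians; the large subunit median is 11.2% in WT CD8 cells and 5.61% in WT Foxp3-positive cells.

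The level of a gene in a group is the mean over cells of log2(FPKM + 1), in which cells at 0 count. By the mean of the 6 groups, the highest large subunit genes included Rplp0, the base of the stalk that recruits elongation factors (10.99), and Rpl19 (10.62). The highest small subunit genes were the X-linked Rps4x (10.60), Rpsa, also known as the laminin receptor precursor (10.15), and Rps14 (10.01). Rplp0 ranged from 0 to 13430 FPKM with a median of 3604 in WT CD8 cells, and had medians of 3470 in KO CD8, 1839 and 2564 in WT and KO Foxp3-negative, and 1642 and 2541 in WT and KO Foxp3-positive cells. Its partners on the stalk were lower, with levels of 9.78 for Rplp1 and 8.95 for Rplp2. Rps6, the small subunit protein phosphorylated by S6 kinases, had medians of 1615, 1411, 913.6, 943.5, 584.8 and 893.8 FPKM in the same order of groups. It was at 1 FPKM or more in 89.1% to 100% of the cells of each group.

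Most members were found in most cells. 74 of the 80 were at 1 FPKM or more in at least 50% of the 350 cells, and 40 were at that level in at least 80% of the cells of every group. The matching counts over all genes are not given, so these do not set the members apart from genes at large. WT CD8 cells had the highest level for 71 members and KO CD8 cells for 5, and WT Foxp3-positive cells had the lowest for 63 and WT Foxp3-negative cells for 11. Of all genes measured in WT, 4129 of 4687 were also lower in Foxp3-negative than in CD8 cells. Between Foxp3-positive and Foxp3-negative WT cells, 2746 of 3850 were higher in the former. The order of the 6 groups was not counted over all genes. Neighbouring groups in this order differ by less than the SD over cells for most genes: the level of Rps6, for example, was 10.40 ± 1.49 (SD over 90 cells) in WT CD8 and 10.23 ± 1.35 (SD over 86 cells) in KO CD8. The lowest levels by the mean of the 6 groups, apart from members at 0, were those of Rpl22 (4.08), Rpl34 (1.99) and Rpl30 (0.94) in the large and included those of Rps15a (6.12) and Rps27l (1.59) in the small subunit. Levels of Rpl3l, known from heart and skeletal muscle, of Rpl10l, known from testis, and of Rpl39l were 0.0 in every kept cell.

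**Figure D2:**
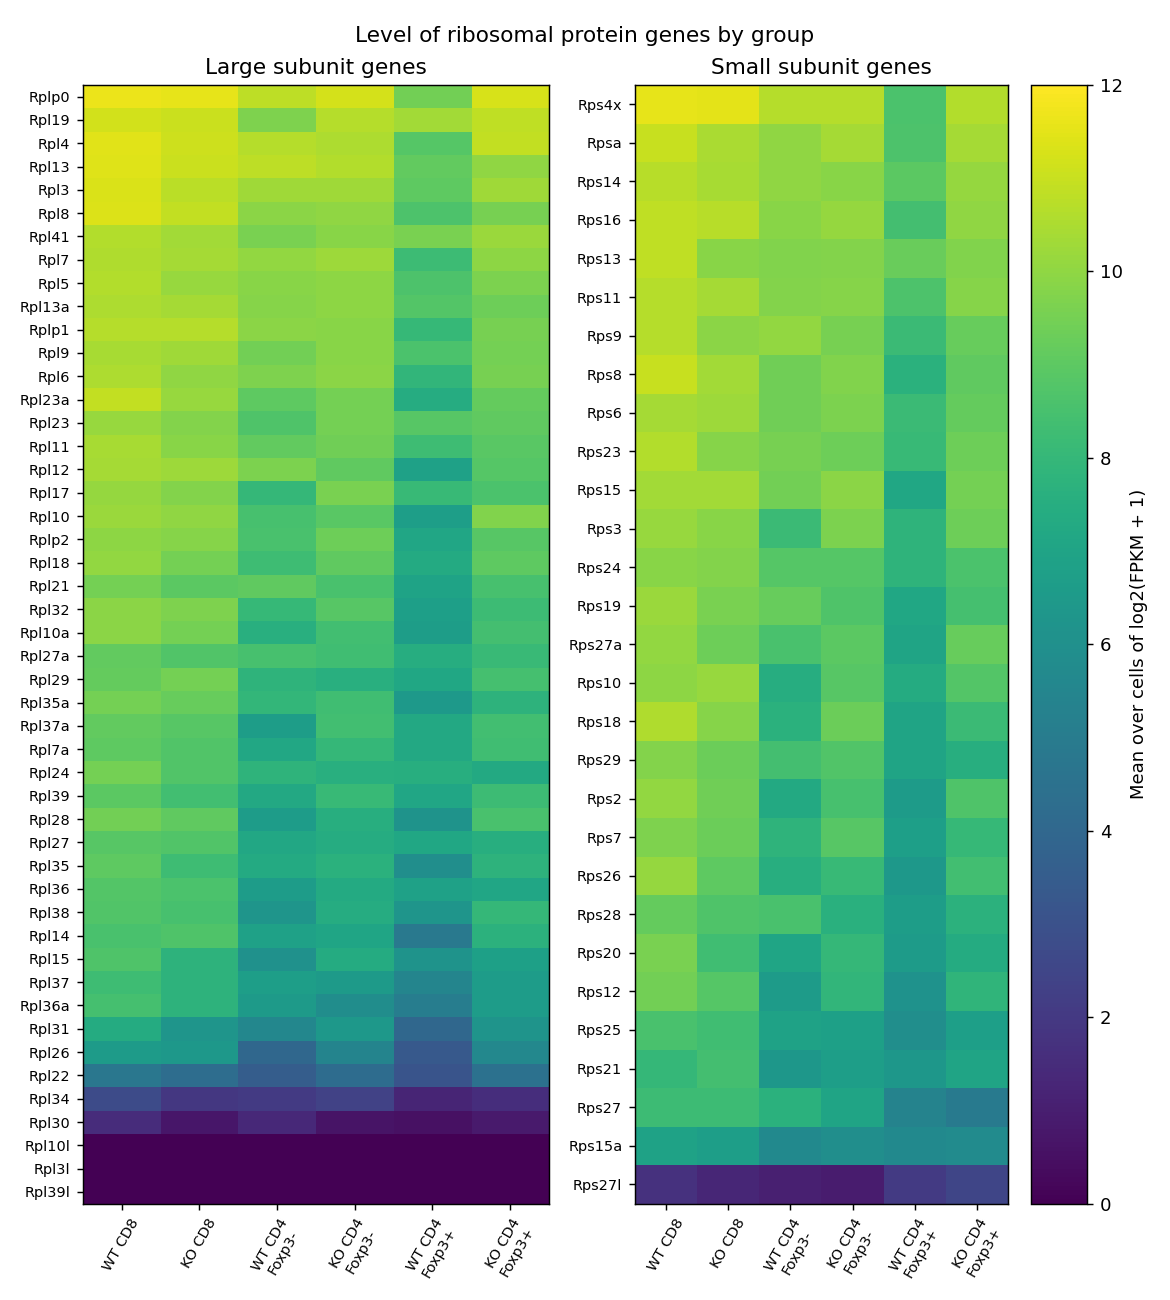
Mean over cells of log2(FPKM + 1) (colour, 0 to 12) of the large (left) and small (right) subunit genes named on the axis, in rows ordered by their mean over the 6 groups in columns. The WT Foxp3-positive column is the lowest and the WT CD8 column the highest for most genes, as for Rplp0 and Rps4x.

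Some low members have near-identical copies listed as genes of their own in the table. A copy here is another annotated transcript (GENCODE M21) at least 95% identical over at least 80% of the member's coding sequence. Of the 80 members, 74 have a copy in that annotation and 11 have one among the table's genes. Rpl30 averaged 44.8 FPKM over the kept cells and was found in 12.6% of them, while its copy Gm12191 averaged 785 FPKM. Rpl34 averaged 32.95 FPKM and Rpl34-ps1 averaged 872. Rpl26 averaged 211.9 and Gm15772 averaged 953.7, and Rps15a averaged 113.4 and its 2 copies together 291.7. Summed with Gm12191, Rpl30 was found in 98.9% of WT CD8 and 78.3% of WT Foxp3-positive cells. Short fragments from such copies cannot be assigned with certainty, so the levels of these members alone are uncertain. Adding each copy to its member, an alternative chosen after the values were seen, moved the small subunit median of WT Foxp3-negative CD4 minus WT CD8 cells, given below, from -1.25 to -1.38 and every other subunit median by less. Rpl22, a large subunit protein needed for the development of alpha-beta T cells, was also low, with medians between 12.6 and 66.4 FPKM.

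Within the WT pool, Foxp3-positive cells had lower levels of most ribosomal protein genes than Foxp3-negative cells, while genes at large were higher. The median difference, Foxp3-positive minus Foxp3-negative, was -1.03 over the 45 large subunit genes measured and -1.12 over the 31 small subunit genes, against 0.42 over all 3850 genes measured. Measured genes are those at 1 FPKM or more in 20% or more of a group's cells, in at least 1 of the groups compared. 42 members were lower by at least 1 (log2), where 4.81% of all genes were, and 1 was higher by at least 1, where 23.9% of all genes were. 43 of 45 large and 30 of 31 small subunit genes were under that median of all genes. The lowest large subunit genes were Rpl12, a protein near the stalk base (-2.76), Rpl21 (-2.12) and Rpl14 (-2.04). Rpl12 ran from 0 to 4138 FPKM with a median of 1164 in Foxp3-negative cells and from 0 to 2468 with a median of 665.7 in Foxp3-positive cells, where 35 of 46 cells had a value. These ranges overlap. The lowest small subunit genes were Rps27 (-2.30), Rps15 (-2.29) and Rps19, mutated in Diamond-Blackfan anaemia (-2.07). The highest were Rpl19 (0.67), Rpl37a (0.56) and Rpl36 (0.25) of the large and Rps27l (1.02), Rps21 (0.027) and Rps15a (0.014) of the small subunit. Cells were also weighted so that both groups held the same mix of 4 classes of genes detected per cell, with edges at 1500, 2000 and 3000. Under this setting, called weighting by detected genes from here on, the medians were -1.70 and -1.85 and 58 members were lower by at least 1. With at least 2000 genes a cell they were -0.46 and -0.78 with 22 members, and with medians over cells -0.38 and -0.63 with 14. Only 6 WT Foxp3-negative cells had at least 2000 genes. They stand for that group in the upper classes of the weighting and in the cut at 2000. Numbers of genes can still differ within a class. The shares of all genes given here and below are those of the reported setting. Counts at other settings have no such share beside them, and medians at other settings mostly have no median of all genes. Where these are missing, the values do not place the members among genes at large.

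Within the KO pool, the same contrast on this scale was smaller, and its size and sign rested on the cells used. The median difference was -0.10 for the large and -0.11 for the small subunit, against 0.60 over all 4849 genes measured. 3 members were lower by at least 1, where 2.35% of all genes were, and 3 were higher, where 30% of all genes were. 40 of 45 large and 29 of 31 small subunit genes were under that median of all genes. With weighting by detected genes, the medians were -0.76 and -0.89 and 30 members were lower by at least 1. With all cells, including those under 1000 genes, the medians were 0.30 and 0.30. The lowest large subunit genes were Rpl17 (-0.97), Rpl34 (-0.82) and Rpl13a (-0.65), and the lowest small ones Rps27 (-2.12), Rps29 (-1.24) and Rps18 (-1.13). Summed with its copy Rpl34-ps1, Rpl34 was at -0.093. The highest included Rpl28 (1.06), Rpl29 (0.87) and Rpl10 (0.78), and Rps27l (1.57) and Rps21 (0.32). Rpl28 was found in 33 of 35 KO Foxp3-positive cells, from 0 to 2834 FPKM with a median of 575.6, and in 44 of 54 Foxp3-negative cells, from 0 to 2500 FPKM with a median of 601.7. Its positive difference thus goes with fewer cells at 0 and not with a higher median.

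**Figure D3:**
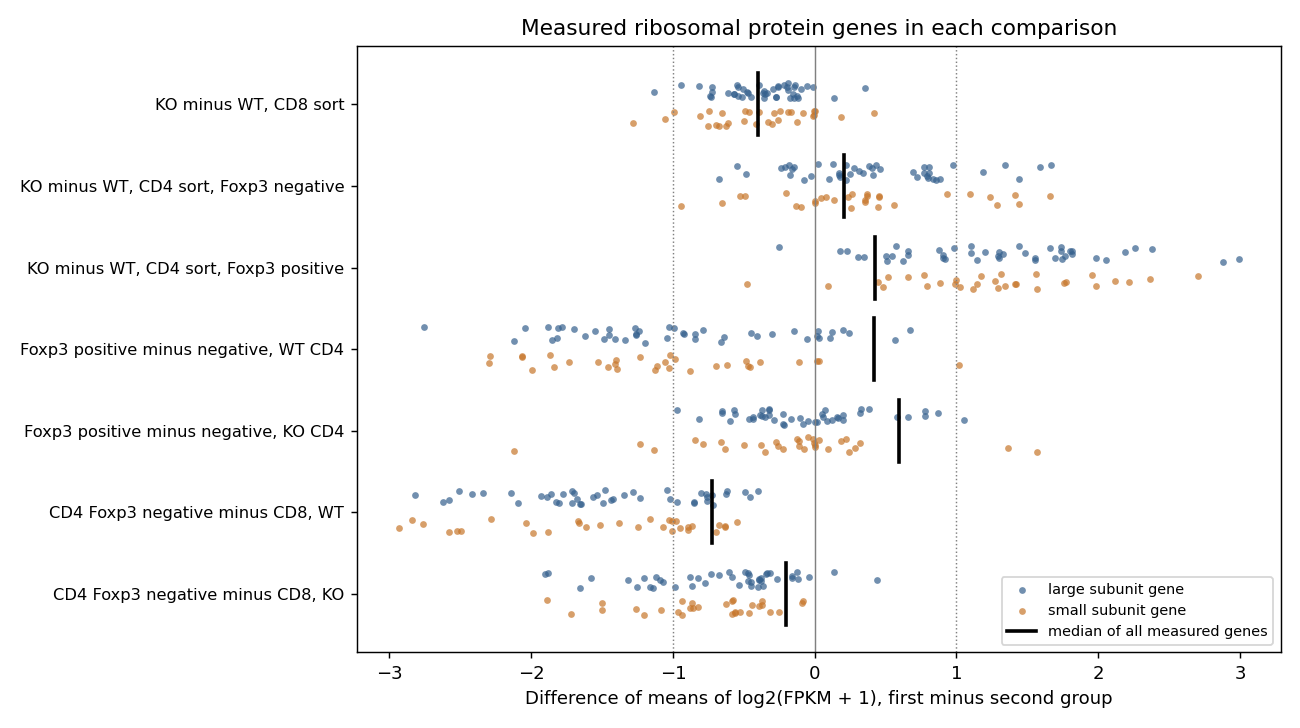
Differences of the mean of log2(FPKM + 1) (x axis) for each measured large (blue) and small (orange) subunit gene in the 7 comparisons, with the median of all measured genes as a black line and dotted lines at -1 and 1. In both comparisons of Foxp3-positive with Foxp3-negative cells most members lie left of the black line, at 0.42 in WT and 0.60 in KO.

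Rps27 and its paralogue Rps27l stood at opposite ends of the small subunit in both of these comparisons. Both encode small subunit proteins of nearly the same sequence, and Rps27l is known as a target of p53. Rps27 is on chromosome 3 (90212522-90213651, minus strand, mm10) and Rps27l on chromosome 9 (66946086-66949516, plus strand). The coding sequences have the same length and 76.1% identical bases. The first 90 bases hold 24 of the differing positions, shown in capitals:
Rps27: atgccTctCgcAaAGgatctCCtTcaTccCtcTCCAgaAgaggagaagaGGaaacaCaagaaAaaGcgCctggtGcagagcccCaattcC
Rps27l: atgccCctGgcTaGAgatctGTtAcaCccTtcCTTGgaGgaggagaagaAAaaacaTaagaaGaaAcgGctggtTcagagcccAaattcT
The longest run of identical bases over the whole coding sequence is 11.

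Rps27 was present or absent cell by cell. It had a value in 75.6% of WT CD8 cells (exact 95% interval 65.4% to 84%, for counting error only), 76.7% of KO CD8, 74.4% of WT and 66.7% of KO Foxp3-negative cells. In Foxp3-positive cells it had a value in 54.3% in WT (39.01% to 69.1%) and 48.6% in KO (31.38% to 66.01%). Its medians were 1639, 1481, 1114, 1134, 374.6 and 0 FPKM, with highest cells of 6336, 5941, 3982, 4176, 2859 and 3240, so every group holds cells at 0 and cells well above 2000 FPKM. Rps27l had a median of 0 in every group and a value in 23.3%, 16.3%, 12.8%, 12.96%, 28.3% and 34.3% of cells. Its intervals overlap between Foxp3-positive and Foxp3-negative cells, from 15.99% to 43.5% against 4.30% to 27.4% in WT and from 19.1% to 52.2% against 5.37% to 24.9% in KO. Few cells decide its difference: 13 WT and 12 KO Foxp3-positive cells and 5 and 7 Foxp3-negative cells had a value.

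Restricting to cells with at least 70 of the 80 members present, Rps27 had a value in 13 of 17 Foxp3-positive cells in WT and in 10 of 19 in KO. It had one in 10 of 11 and 25 of 30 Foxp3-negative cells, and in 68 of 81 and 57 of 67 CD8 cells, WT first. Rps6 and Rplp0 were found in all of these cells, which the filter on members present favours for abundant members. Rps27 and Rps27l themselves count among the members present, so the filter bears on their shares as well. Rps27l was found in 8 of 17 and 9 of 19 Foxp3-positive cells, and in 3 of 11 and 4 of 30 Foxp3-negative cells. In the KO Foxp3-positive group, 7 cells had Rps27l without Rps27, 12 had Rps27 alone, 5 had both and 11 neither. The Rps27 difference was negative in every alternative run, from -3.55 to -1.58 in WT and from -4.24 to -1.51 in KO, leaving aside the median over cells in KO. That value, -10.15, compares a Foxp3-positive median of 0 with one of 1134 FPKM, so its size is set by the pseudocount. That of Rps27l in WT was -0.58 with at least 2000 genes a cell and 0.15 with weighting by detected genes. In KO it was 0.68 with that weighting and 2.11 with at least 2000 genes.

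**Figure D4:**
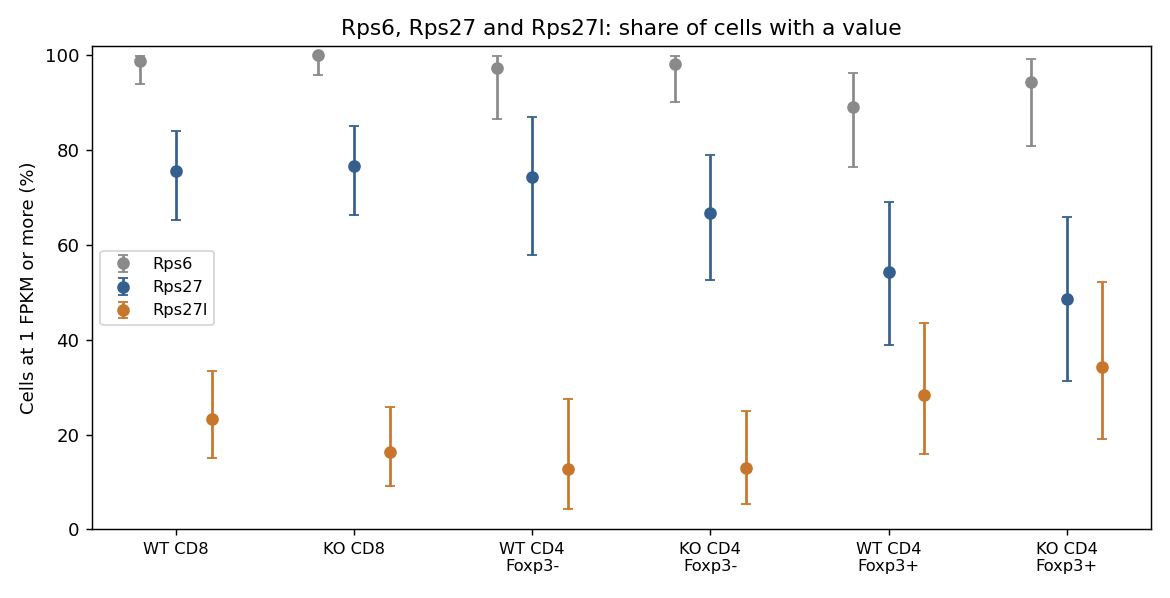
Share of cells at 1 FPKM or more (y axis, percent) for Rps6, Rps27 and Rps27l in the 6 groups, with exact 95% intervals. Rps27 is at 74.4% in WT Foxp3-negative and 54.3% in WT Foxp3-positive cells, while Rps27l is at 12.8% and 28.3%.

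Between genotypes, the ribosomal protein genes of CD8 cells had medians close to that of all genes at the reported setting. The median difference, KO minus WT, was -0.35 for the large and -0.40 for the small subunit, and -0.40 over all 4686 genes measured. 3 members were lower by at least 1, where 13.3% of all genes were, and 0 were higher, where 0.555% were. The 3 were Rps20 (-1.28), Rpl31 (-1.13) and Rps26 (-1.06). Rpl15 (-0.94) and Rpl34 (-0.81) followed in the large subunit and Rps13 (-0.99) in the small. Summed with its copy Rpl34-ps1, Rpl34 was at -0.23. The highest were Rps21 (0.42), Rpl29 (0.35), Rps10 (0.18), Rpl14 (0.14), Rps27 (0.00033) and Rplp1 (-0.015). The place of the members among all genes turned with the setting. With at least 2000 genes a cell the medians were -0.15 and -0.18 against -0.39 over all genes, and with a pseudocount of 10 they were -0.30 and -0.27 against -0.19. With weighting by detected genes they were 0.0045 and -0.10 against -0.073. The number of detected genes was lower in KO than in WT CD8 cells, as given above, and its part in the difference was not tested beyond that weighting.

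In Foxp3-negative CD4 cells, the KO-labelled pool had slightly higher levels, near those of all genes, and the sign turned with the cells used. The median difference was 0.34 for the large and 0.31 for the small subunit, against 0.21 over all 3426 genes. 11 of 75 measured members, 14.7%, were higher by at least 1, where 13.5% of all genes were, and 0 were lower, where 3.15% were. The highest were Rpl37a (1.66), Rpl17 (1.59) and Rpl26 (1.44) in the large and Rps18 (1.66), Rps3 (1.44) and Rps10 (1.42) in the small subunit. Rps18 had a value in 30 of 39 WT cells, with a median of 815.4 FPKM, and in 50 of 54 KO cells, with a median of 1112. Its highest cells were at 2871 and 3152 FPKM, so the groups overlap throughout. The lowest were Rpl36a (-0.67), Rpl12 (-0.55) and Rpl21 (-0.48), and Rps28 (-0.94), Rps27 (-0.66) and Rps19 (-0.52). Among cells with at least 2000 genes, 6 in WT and 16 in KO, the subunit medians were -0.22 and -0.36.

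In Foxp3-positive cells, the KO-labelled pool had higher levels of nearly all members. The median difference was 1.30 for the large and 1.27 for the small subunit, against 0.42 over all 4894 genes. 48 members were higher by at least 1, where 21.5% of all genes were, and 0 were lower, where 2.31% were. The highest large subunit genes were Rpl10, which joins the subunit late and sits near the catalytic centre (2.99), Rpl14 (2.88) and Rpl28 (2.38). Rpl10 ran from 0 to 3102 FPKM in WT, with a median of 729.0 and a value in 32 of 46 cells, and from 0 to 4949 in KO, with a median of 1250 and a value in 33 of 35 cells. The highest small subunit genes included Rps15 (2.36) and the ubiquitin fusion gene Rps27a (2.21). Rpl14 ran from 0 to 1068 FPKM in WT, with a median of 122.5, and from 0 to 2066 in KO, with a median of 564.2, so the groups overlap. The lowest were Rps27 (-0.48), Rpl24 (-0.25), Rps15a (0.097), Rpl23 (0.18), Rpl36 (0.23) and Rps27l (0.45).

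This difference was smaller under both settings that use the number of genes found in a cell. Among cells with at least 2000 genes the medians were 0.30 and 0.36 and 6 members were higher by at least 1, and with weighting by detected genes they were 0.52 and 0.28 and 19 members. The share of FPKM, which does not use the log scale, differed little, at 9.25% in WT and 10.5% in KO, and at 10.6% and 10.5% among cells with at least 2000 genes. WT Foxp3-positive cells reached lower numbers of members present, from 16 to 76 with a median of 64.5, against 50 to 77 with a median of 71 in KO.

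Foxp3-negative CD4 cells had lower levels than CD8 cells in both genotypes. In WT the median difference, CD4 minus CD8, was -1.49 for the large and -1.25 for the small subunit, against -0.73 over all 4687 genes. 52 members were lower by at least 1, where 35.2% of all genes were, and 0 were higher, where 0.875% were. All 76 measured members had a negative difference, as did 4129 of all 4687 genes measured. Rps18 (-2.93), Rps12 (-2.84), Rpl28 (-2.82), Rps2 (-2.76), Rpl15 (-2.62) and Rpl26 (-2.58) were the lowest, and the highest included Rpl21 (-0.45), Rpl7 (-0.49), Rps27 (-0.55), Rps28 (-0.63) and Rps9 (-0.63). Rpl28 had a median of 1021 FPKM and a value in 86 of 90 WT CD8 cells, and a median of 315.4 FPKM and a value in 30 of 39 Foxp3-negative cells. With weighting by detected genes the medians were -0.24 and -0.46 and 10 members were lower by at least 1. The classes of at least 2000 genes again held only 6 WT Foxp3-negative cells.

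In KO the median difference was -0.49 for the large and -0.60 for the small subunit, against -0.20 over all 3679 genes. 19 members were lower by at least 1, where 8.45% of all genes were, and 0 were higher, where 3.86% were. The lowest included Rpl29 (-1.91), Rpl36a (-1.88), Rps21 (-1.72), Rpl14 (-1.65) and Rps25 (-1.50). Rpl34 (0.44), Rpl31 (0.13), Rpl22 (-0.037), Rpsa (-0.080), Rps13 (-0.090) and Rps3 (-0.25) were the highest. Summed with its copy Rpl34-ps1, Rpl34 was at -0.21, so its sign rests on how fragments were divided between the 2 rows. Each of the 6 groups enters more than 1 comparison, so the values of different comparisons share cells.

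Among the cells of a group, the ribosomal protein genes moved together, and other genes of translation moved with their level. The share taken by the large subunit and that taken by the small subunit had a Spearman correlation over cells of 0.84 to 0.96 in the 6 groups, a description of 35 to 90 cells whose 2 shares have the same denominator. Over members, the median over groups of the correlation with the mean of the other members was highest for Rplp0 (0.83), Rpl5 (0.74), Rps4x (0.79) and Rpsa (0.77). It was lowest for Rpl34 (0.20), Rpl30 (0.25), Rps27l (0.16) and Rps27 (0.35). The values of Rpl34 and Rpl30 alone are uncertain because of their copies, as given above. The mean log2 level of the members had a correlation of 0.57 to 0.85 with the number of genes detected, while the share had one of -0.16 to 0.29. That level also had correlations of 0.49 to 0.83 with initiation factors and 0.43 to 0.83 with mitochondrial ribosomal protein genes. The correlations of single members use the same log2 scale, so they do not set the members apart from other genes.

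In CD8 and Foxp3-negative CD4 cells, those with more transcripts of naive and memory T cells had a higher ribosomal protein share. Over cells, the share had a Spearman correlation with the mean of 12 naive and memory genes of 0.59 and 0.78 in CD8 cells (WT, then KO), 0.54 and 0.55 in Foxp3-negative cells, and 0.19 and 0.21 in Foxp3-positive cells. With 11 effector and checkpoint genes it was -0.51, -0.61, -0.24, -0.56, -0.098 and -0.30. These values share the cells' total FPKM. The mean log2 level of the members did not follow the share throughout. Its correlation with the naive and memory genes was 0.026, 0.67, 0.26, 0.44, 0.30 and -0.014 in the same order. With the effector and checkpoint genes it was 0.21, -0.30, -0.14, -0.28, 0.24 and 0.20. In WT CD8 cells the association is thus one of the share and not of the level.

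Splits at single genes, chosen after these correlations were seen, show the sizes. For Tcf7, a transcription factor of naive and stem-like T cells, the medians with and without were 21.6% and 16.3% in WT CD8 and 22.4% and 14.02% in KO CD8 cells. In Foxp3-negative cells they were 17.1% (23 cells) and 13.04% (16 cells) in WT, and 15.7% (26 cells) and 12.8% (28 cells) in KO. For Pdcd1, the gene of the checkpoint receptor PD-1, they were 15.8% and 21.7% in WT CD8 and 14.3% and 22.6% in KO CD8 cells. For Gzmb, a cytotoxic granule protease, they were 15.8% and 21.4%, and 14.4% and 22.2%. For Il7r, the gene of the IL-7 receptor, they were 20.8% and 18.45% in WT CD8 and 21.6% and 13.6% in KO CD8 cells. These directions did not hold throughout. In WT Foxp3-negative cells the medians with and without Gzmb were 19.1% (2 cells) and 15.5% (37 cells). Foxp3-positive cells followed them for Tcf7. Their medians were 10.5% (7 cells) and 8.98% (39 cells) in WT and 15.9% (1 cell) and 10.3% (34 cells) in KO. With and without Il7r, the medians of Foxp3-positive cells were 9.22% (30 cells) and 11.1% (16 cells) in WT and 9.87% (26 cells) and 14.7% (9 cells) in KO. With and without Pdcd1 they were 9.47% (20 cells) and 7.55% (26 cells) in WT and 10.01% (18 cells) and 11.2% (17 cells) in KO. The ranges of cells with and without each gene overlap in all of these. Detected genes differed as well: WT CD8 cells with Pdcd1 had a median of 3106 genes and those without 2043, while in KO CD8 cells the medians were 2035 and 1929.

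**Figure D5:**
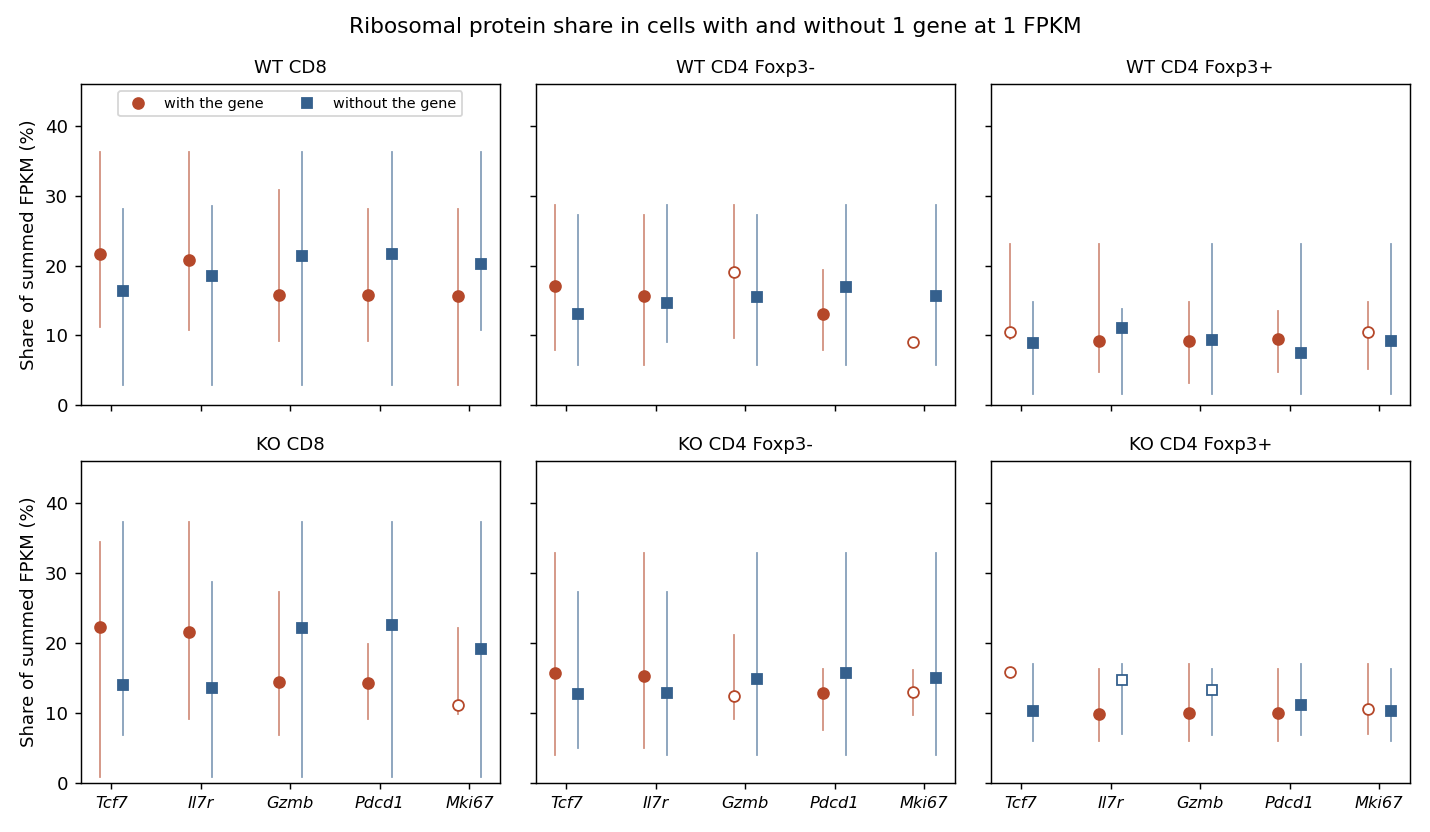
Median (symbols) and lowest to highest (lines) share of summed FPKM (y axis, percent) of the ribosomal protein genes in cells with and without 1 FPKM of each of 5 genes, by group; open symbols mark fewer than 10 cells. In KO CD8 cells the medians with and without Tcf7 are 22.4% and 14.02%.

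Other genes of translation are given for the same Foxp3-positive minus Foxp3-negative contrast, in which 23.9% of all genes were higher and 4.81% lower by at least 1 in WT, and 30% and 2.35% in KO. Rps3a1 and Fau, ribosomal genes outside the symbol rule, had medians of 1369 and 1720 FPKM in WT Foxp3-negative cells and 1046 and 1396 in WT Foxp3-positive cells. They belong to a list of ribosomal fusion genes and ribosome-bound proteins outside the rule, with 8 measured. Of these, 1 was higher and 3 lower by at least 1 in WT, with a median of -0.14. In KO 2 were higher and 0 lower, with a median of -0.0039. Of 6 elongation factors, which bring aminoacyl-tRNA to the ribosome and move it along, 1 was lower by at least 1 in WT Foxp3-positive cells and the median was -0.69, with Eef1a1 lowest (-1.01) and Eef1d highest (0.98). In KO their median was 0.090, with 0 past 1 in either direction. Of 25 measured initiation factors, 3 were higher and 1 lower by at least 1 in WT, with a median of 0.16, and of 27 in KO 6 were higher and 0 lower, with a median of 0.41. Of 14 measured ribosome biogenesis genes, 1 was higher and 5 lower in WT, with a median of -0.19 and Nop56, of the box C/D particles that modify ribosomal RNA, lowest (-1.95). Of 19 in KO, 6 were higher and 0 lower, with a median of 0.70. Of 26 mitochondrial ribosomal protein genes in WT, 6 were higher and 1 lower, with a median of 0.61, and of 46 in KO 17 were higher and 0 lower, with a median of 0.85. The mitochondrial medians thus lay on the side of all genes, 0.42 and 0.60, and the cytosolic ones below it.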

How the data were processed

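The deposited table holds FPKM values of single cells, which the authors normalized with TMM factors, per the labels' description field; Bowtie, RSEM and mm10 are named in the submitters' processing notes, and versions are not given in the sources used here. FPKM is no count, so no count test was run. Of 375 columns, 4 hold values of cell populations and were not used here, and 4 rows with repeated symbols were dropped. Cells with fewer than 1000 genes at 1 FPKM were left out. RSEM divides fragments that fit several transcripts, so values of near-identical genes depend on that step.

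For each gene the mean over cells of log2(FPKM + 1) was taken per group and subtracted between groups, with a pseudocount of 1, in Python 3.11.15 with numpy 2.4.6, pandas 2.3.3 and scipy 1.17.1. Fold changes on this scale understate those of low genes. The calculation was tried on the WT CD8 cells split at random, with some genes multiplied by a known factor on 1 side. That checks the arithmetic only. Intervals on shares of cells are exact Clopper-Pearson 95% intervals and cover counting error only. Copies were searched with blastn 2.17.0 in GENCODE M21, and start sites came from RefSeq. With 1 pool per group, no test was possible. Named genes are the 3 highest and 3 lowest of each subunit by level and in each comparison, with the genes of the fixed lists at their extremes, and a few described for their role, such as Rps6, Rplp1 and Rpl22, were chosen after their values were seen. The members, lists and comparisons were chosen with earlier results of these data known. Results of a few genes are not reported here.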

Additional observations from a re-analysis of the deposited data

Results flagged for a closer look

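At the reported setting, the KO minus WT difference had 1 sign in CD8 cells and the other in CD4 cells. In CD8 cells the median was -0.35 over large and -0.40 over small subunit genes. In Foxp3-negative CD4 cells it was 0.34 and 0.31, and in Foxp3-positive CD4 cells 1.30 and 1.27. Over all genes measured it was -0.40, 0.21 and 0.42 in the same order. The difference between the sorts was not tested, because each group is 1 pool of cells. The number of detected genes per cell moved the same way, with medians of 2148 in WT and 1955 in KO CD8 cells, 1547 and 1746 in Foxp3-negative cells, and 1884 and 2152 in Foxp3-positive cells, and its part in the difference was not tested. The signs were not stable for CD8 and Foxp3-negative cells. With at least 2000 genes a cell, Foxp3-negative cells were at -0.22 and -0.36, the sign of CD8 cells, and with weighting by detected genes the large subunit median of CD8 cells was 0.0045 and the small subunit median of Foxp3-negative cells -0.076.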

How the results depend on the processing

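Of the alternative values of the subunit medians, 10 moved by more than the SD over members and 6 changed sign, and the rest did neither. Of 79 alternative counts, 46 stayed within 1.5 times the reported count and 33 did not. All 20 alternative medians of the share of FPKM moved by less than the SD over cells. Counts below are of members past 1 (log2) in the direction reported. Counts and medians are given without those of all genes at the same setting, so they do not place the members among genes at large.

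With all cells kept, KO Foxp3-positive minus Foxp3-negative medians were 0.30 (large) and 0.30 (small) with a count of 1, and counts were 24 for the same contrast in WT, 17 for KO minus WT in Foxp3-negative and 5 in CD8 cells. With weighting by detected genes, KO minus WT was 0.0045 (large) with a count of 0 in CD8 cells. It was -0.076 (small) with a count of 3 in Foxp3-negative, and 0.52 and 0.28 with a count of 19 in Foxp3-positive cells. Foxp3-positive minus negative in KO was then -0.76 and -0.89 with a count of 30, and CD4 minus CD8 was -0.24 and -0.46 with a count of 10 in WT, with a count of 10 in KO. With at least 2000 genes a cell, KO minus WT was -0.22 and -0.36 with a count of 3 in Foxp3-negative, and 0.30 and 0.36 with a count of 6 in Foxp3-positive cells, with a count of 1 in CD8. WT CD4 minus CD8 was then -0.60 (large) with a count of 13, and the WT Foxp3 contrast had a count of 22.

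With each cell rescaled to the same summed FPKM, the counts were 1 for KO minus WT in CD8 and 5 for the KO Foxp3 contrast. With medians over cells, KO minus WT in Foxp3-positive cells was 0.47 (large) with a count of 10, and counts were 1 in Foxp3-negative, 1 in CD8, 14 for the WT Foxp3 contrast, and 30 in WT and 2 in KO for CD4 minus CD8. A pseudocount of 0.1 gave 22 for KO minus WT in Foxp3-negative cells, 6 in CD8 and 7 for the KO Foxp3 contrast. A pseudocount of 10 gave 4, 0 and 1 for these, 31 for KO minus WT in Foxp3-positive cells, 26 for the WT Foxp3 contrast and 9 for CD4 minus CD8 in KO. Without cells holding other cell types' markers the KO Foxp3 contrast had a count of 7. The cause of these changes was not tested. No paired analysis was possible because the numbers in the cell titles do not pair cells across pools and no result comes from a test.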
